A study of Mus musculus with 6 samples.

Results

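The symbols Gm followed by digits name mouse gene predictions that have not received a descriptive symbol. The 102 Gm transcripts described here are the rows of the deposited count table with such a symbol and at least 3 CPM (counts as a share of the library's total, on the usual CPM scale) in at least 3 of the 6 libraries. They were drawn from 1087 rows named this way among 24091 rows in all, of which 242 had no count in any library. They were thus selected on the CPM of these same libraries, so a transcript abundant in only 1 age group could enter through that group alone.

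The libraries came from wild-type mouse hematopoietic stem cells (HSCs), which sit in bone marrow, renew themselves and form all blood lineages. They were sorted as lineage-negative, Sca-1+, c-Kit+, CD150+ and CD48-, from mice aged 20 months (libraries aged 1, 2 and 3) and 2 months (libraries young 4, 5 and 6). The aged samples were pooled from 4 mice and the young samples from 30 mice, and the labels do not say whether these numbers hold per sample or per group. No strain or sex is given, and nothing shows that the 3 samples of a group came from separate animals, so p-values measure only the spread between these samples. In such bulk samples, fewer cells of a type and less RNA per cell cannot be told apart.

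Predicted gene models are of several kinds. Long non-coding RNAs (lncRNAs) are transcripts without a long reading frame that often lie antisense to, or beside, a protein-coding gene. Pseudogenes are copies of a gene that have usually lost the ability to make its protein, and short reads from a recent copy can match the parent equally well. Others are working protein genes that were never renamed, and in mouse these include several interferon-inducible GTPases, which bind the membranes around intracellular pathogens.

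Library totals ran from 16452829 to 21918658 counts, and a count of 0 allows up to 3 counts, or 0.132 to 0.239 CPM, a limit that reflects counting error alone. The scaling factor by trimmed mean of M-values (TMM) was 0.765 for young 4 and 1.04 to 1.08 for the others, and young 4 held the highest value of 44 of the 102 Gm transcripts. Its part in the results was not tested beyond fits without it. Messages of the sort markers were present in all 6 libraries: Kit averaged 976 ± 99.0 CPM in aged and 632 ± 282 CPM in young HSCs, and Slamf1, which encodes CD150, averaged 98.8 ± 18.9 and 64.3 ± 1.95 CPM in aged and young HSCs (SD, n = 3 each, as for every mean below). Cd48 was 7.72-fold lower in aged HSCs (adjusted p = 0.0345; every adjusted p comes from edgeR's quasi-likelihood test unless another tool is named). Ly6a, which encodes Sca-1, was 3.04-fold higher in aged HSCs (121 ± 50.8 against 39.9 ± 9.58 CPM; adjusted p = 0.0435), and it passed in 1 of 6 fits that each left out 1 library (adjusted p 0.0467 to 0.109). Procr and Mecom, further markers of HSCs, were 2.82-fold and 1.83-fold higher in aged HSCs (adjusted p = 0.0106 and 0.0454). Of those 6 fits, Procr passed in 4, Cd48 in 2 and Mecom in 1. Hlf, another marker of HSCs, averaged 264 ± 57.5 CPM in aged and 213 ± 21.3 CPM in young HSCs, with overlapping groups. Kit, Slamf1 and Hlf did not pass (adjusted p = 0.305, 0.0891 and 0.374). Xist averaged 147 ± 32.1 CPM in aged and 132 ± 8.04 CPM in young HSCs (adjusted p = 0.615). A list of 5 T and NK cell markers summed to 117 to 209 CPM in aged and 4.98 to 9.78 CPM in young libraries. Nearly all of it came from Klrb1c, while Cd8a had no count in any library and Cd3e, Cd3g and Ncr1 each stayed at or below 0.103 CPM. Klrb1c was 20.8-fold higher in aged HSCs (adjusted p = 0.00358) and passed in all 6 fits without 1 library. The other lists ranged, in aged and young libraries, from 34.8 to 36.8 and 39.5 to 69.6 CPM for macrophages, from 3.64 to 11.8 and 6.44 to 11.4 CPM for granulocytes, and from 59.4 to 87.0 and 73.4 to 133 CPM for the B lineage. They ranged from 65.4 to 77.1 and 40.0 to 119 CPM for erythroid cells, from 211 to 1041 and 680 to 1102 CPM for megakaryocytes, from 203 to 310 and 143 to 186 CPM for endothelial cells, and from 2.23 to 5.62 and 3.82 to 49.4 CPM for stromal cells. Endothelial sums, higher in aged libraries, and macrophage sums, lower in aged libraries, did not overlap between ages. None of the 4 tested endothelial genes and none of the 7 tested macrophage genes passed. Ppbp of the megakaryocyte list was 4.48-fold lower in aged HSCs (adjusted p = 0.0160) and Cxcl12 of the stromal list 4.59-fold lower (adjusted p = 0.0486). Without 1 library, Ppbp passed in 2 of 6 fits and Cxcl12 in 1. The part of these cell types in the Gm differences was not tested.

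By RefSeq's annotation, 53 of the 102 Gm transcripts were lncRNAs, 28 were protein-coding, 15 were pseudogenes and 6 had no entry. They were spread over 19 chromosomes, with 10 on chromosome 17 and 9 on chromosome 2. Their age differences were mostly small. All 102 were among the 13413 genes tested, and 8 passed the adjusted p threshold of 0.05, each higher in aged HSCs (7.84% of the 102; over all genes tested 5.76% passed, 4.26% higher and 1.50% lower). No Gm transcript was lower in aged HSCs by this test. Before adjustment, 21 had a p under 0.05, 18 of them higher and 3 lower in aged HSCs, where 25.1% of all genes tested fell under that p. DESeq2 called 16 higher and 1 lower (16.3% of all genes tested passed with that tool), and limma-voom called 8 higher and 1 lower (6.09% of all genes tested). The median log2 fold change, aged over young, was 0.18 for the 102 and 0.04 for all genes tested, with 58 Gm transcripts above 0 and 44 below. Aged and young libraries did not overlap for 25 of the 102 (24.5%, against 36.6% of all genes tested).

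The level rule shaped these counts. At 3 CPM or more in every library stood 73 of the 102, of which 4 were higher and 0 lower in aged HSCs (5.48%), with a median log2 fold change of 0.06. Another 10 reached that level in the 3 aged libraries only and held the other 4 that passed, Gm8909, Gm12866, Gm14207 and Gm13986. These entered only through the age group in which they were higher. Only 1 reached that level in the 3 young libraries alone. Just inside the rule were Gm19897, Gm21284 and Gm12522, whose third-highest unscaled values were 3.03, 3.04 and 3.06 CPM. Just outside were Gm12992, Gm128 and Gm16938, with 2.89, 2.84 and 2.78 CPM. Rows named by a RIKEN clone (393 at the same level) gave 21 higher and 3 lower in aged HSCs (6.11%), and the 10842 remaining rows at that level gave 424 higher and 176 lower (5.53%). Of 35 non-coding RNA genes with a descriptive name, 2 passed (5.71%, against 5.76% of all genes tested), both higher in aged HSCs. Firre averaged 87.6 ± 20.7 CPM in aged and 45.3 ± 1.43 CPM in young HSCs (adjusted p = 0.0421). Lncpint averaged 6.70 ± 1.004 and 2.48 ± 0.801 CPM in aged and young HSCs (adjusted p = 0.0451). In the 6 fits that each left out 1 library, Firre passed in 1 (adjusted p 0.0461 to 0.131) and Lncpint in 0 (0.0540 to 0.166).

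**Figure D1:**
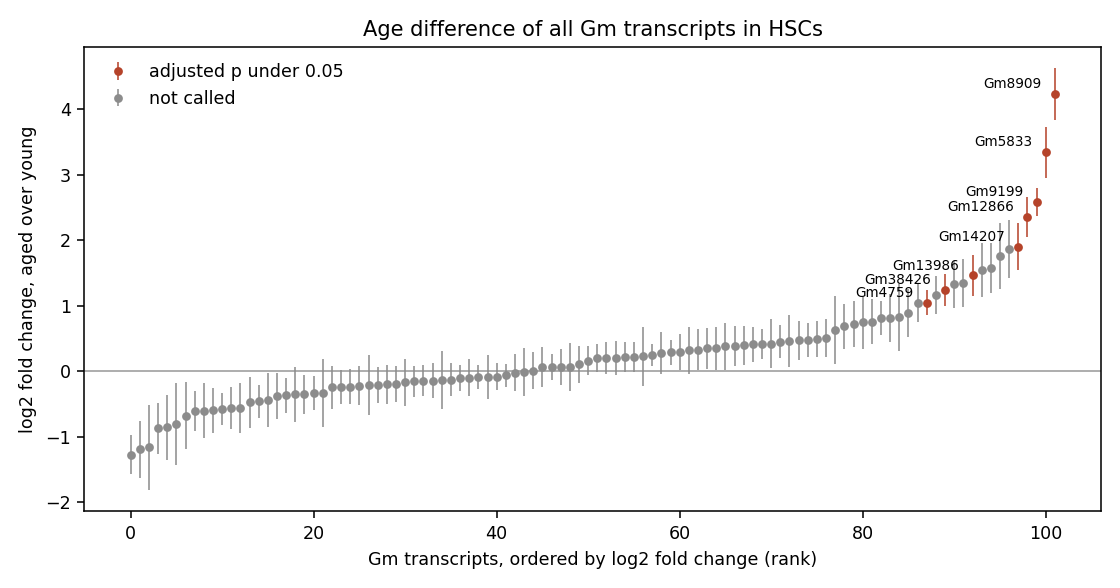
Log2 fold change, aged over young, of the 102 Gm transcripts in rank order, with standard errors as bars. The 8 transcripts with an adjusted p under 0.05 all lie above 0, and the values run from -1.27 to 4.23.

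Among lncRNAs, 5 of 53 were higher in aged HSCs and 0 lower (9.43%, against 5.76% of all genes tested). Of these, Gm12866, Gm13986 and Gm14207 met the level rule through the aged libraries only, the group in which they were higher. Gm5833 differed most. This intergenic lncRNA (chromosome 1, 138640095 to 138682075, minus strand, build mm10) had 74.7, 96.3 and 120 CPM in aged 1, 2 and 3, against 14.9, 8.22 and 5.74 CPM in young 4, 5 and 6. All aged libraries lay well above all young ones, and it was 10.2-fold higher in aged HSCs (97.0 ± 22.7 against 9.64 ± 4.76 CPM; log2 fold change 3.34 ± 0.39, SE; adjusted p = 0.0103). It passed in 5 of the 6 fits that each left out 1 library, and without young 5 its adjusted p was 0.0563. None of its exonic windows of 51 bases, the read length, occurred in another annotated gene, so no stretch of read length is shared with them. Its nearest named gene, Nek7, a mitotic kinase 20338 bp away on the same strand, averaged 96.0 ± 11.05 CPM in aged and 96.4 ± 3.43 CPM in young HSCs, a log2 fold change of -0.01 (adjusted p = 0.985).

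Gm12866 (chromosome 4, 119054790 to 119069111, minus strand) was a low-level intergenic lncRNA. It had 3.74, 3.25 and 4.50 CPM in aged 1, 2 and 3, against 0.636, 0.698 and 0.877 CPM in young 4, 5 and 6. The groups did not overlap, and it was 5.11-fold higher in aged HSCs (3.83 ± 0.631 against 0.737 ± 0.125 CPM; log2 fold change 2.35 ± 0.31; adjusted p = 0.0145). Its adjusted p was 0.0699 without aged 3, 0.0760 without young 5 and 0.0628 without young 6. The nearest named gene, the glucose transporter gene Slc2a1 at 39634 bp, did not pass (log2 fold change 0.69, adjusted p = 0.322).

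Gm13986 (chromosome 2, 117857291 to 118111202, minus strand) starts 674 bp from the start of Thbs1 and is transcribed away from it. It had 7.48, 4.75 and 3.99 CPM in aged 1, 2 and 3, against 1.91, 1.89 and 2.06 CPM in young 4, 5 and 6. Each aged library exceeded each young one, aged 1 most (2.76-fold higher in aged HSCs; log2 fold change 1.46 ± 0.32; adjusted p = 0.0451). The call held in none of the 6 fits without 1 library, where adjusted p ran from 0.0599 to 0.137, and limma-voom gave 0.0552. Thbs1, which encodes the matrix glycoprotein thrombospondin-1, had 59.6, 18.6 and 10.7 CPM in aged 1, 2 and 3, against 8.82, 7.57 and 11.8 CPM in young 4, 5 and 6. For both genes aged 1 was the highest library, but young 6 exceeded aged 3 for Thbs1, which did not pass (adjusted p = 0.155).

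The remaining lncRNAs that passed lie antisense to named genes. Libraries of this kit carry no strand mark, so reads over bases shared by both strands cannot be assigned to either gene. Gm14207 (chromosome 2, 119321199 to 119326197, minus strand) overlaps 414 bases of Dll4, a Notch ligand gene, and 20.3% of its exonic bases are also exonic in Dll4. It had 3.02, 4.18 and 5.99 CPM in aged 1, 2 and 3, against 1.27, 1.30 and 0.964 CPM in young 4, 5 and 6 (3.74-fold higher in aged HSCs; log2 fold change 1.90 ± 0.36; adjusted p = 0.0336). Dll4 had 5.90, 2.22 and 4.27 CPM in aged 1, 2 and 3, against 0.318, 0.897 and 0.877 CPM in young 4, 5 and 6 (5.68-fold higher in aged HSCs; adjusted p = 0.0398). Groups did not overlap for either gene, but within the aged libraries Gm14207 was lowest in aged 1, where Dll4 was highest. Without 1 library, Gm14207 passed in 2 of 6 fits (without aged 1 at 0.0435 and without young 4 at 0.0417; otherwise 0.0975 to 0.116) and Dll4 in 1 of 6 (adjusted p 0.0464 to 0.131).

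Gm38426 (chromosome 8, 84913335 to 84922915, plus strand) lies wholly within Mast1, a microtubule-associated kinase gene on the opposite strand. It had 8.44, 9.49 and 11.2 CPM in aged 1, 2 and 3, against 4.21, 3.49 and 4.65 CPM in young 4, 5 and 6. The groups were apart by more than their spread, and it was 2.36-fold higher in aged HSCs (9.72 ± 1.41 against 4.12 ± 0.586 CPM; log2 fold change 1.24 ± 0.24; adjusted p = 0.0361). Mast1 had 10.02, 7.12 and 6.31 CPM in aged 1, 2 and 3, against 2.39, 4.04 and 5.57 CPM in young 4, 5 and 6, and did not pass (log2 fold change 0.95 ± 0.36; adjusted p = 0.161). Without 1 library, Gm38426 passed only without young 4 (adjusted p = 0.0409; otherwise 0.0604 to 0.135). Its exonic overlap with Mast1 was not determined, since it had no match in the annotation used to count shared exonic bases.

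Of the 15 pseudogenes, 2 were higher in aged HSCs and 0 lower (13.3%, against 5.76% of all genes tested). Gm9199, annotated as a transcribed pseudogene of the gene for glycine cleavage system protein H (Gcsh), occupies chromosome 14, 73025603 to 73026890, on the plus strand. It had 48.4, 57.0 and 61.5 CPM in aged 1, 2 and 3, against 7.31, 9.67 and 10.8 CPM in young 4, 5 and 6. The lowest aged library was more than 4 times the highest young one, and it was 5.99-fold higher in aged HSCs (55.7 ± 6.65 against 9.25 ± 1.77 CPM; log2 fold change 2.58 ± 0.21; adjusted p = 0.00381). The call held in all 6 fits without 1 library, with adjusted p up to 0.0278. Gcsh itself, an enzyme subunit of mitochondrial glycine breakdown, averaged 54.4 ± 2.09 CPM in aged and 65.7 ± 6.65 CPM in young HSCs (log2 fold change -0.27, adjusted p = 0.290).

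Gm9199 ends 2238 bp from the end of Cysltr2, which is read towards it from the opposite strand. Cysltr2 encodes a receptor for cysteinyl leukotrienes, lipid mediators of inflammation. It had 72.5, 72.4 and 73.4 CPM in aged 1, 2 and 3, against 11.2, 14.7 and 11.4 CPM in young 4, 5 and 6 (5.84-fold higher in aged HSCs; log2 fold change 2.55 ± 0.18; adjusted p = 0.00223). These neighbours therefore differed by similar folds, while the named parent Gcsh did not pass. How many Gm9199 windows recur elsewhere was not determined, since it had no match in the annotation used for that count.

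Gm4759 (chromosome 7, 106421550 to 106441073, minus strand) is annotated as a pseudogene of Gvin1, the gene of a very large interferon-inducible GTPase. It had 84.7, 103 and 98.6 CPM in aged 1, 2 and 3, against 56.0, 43.3 and 39.0 CPM in young 4, 5 and 6. The aged libraries were uniformly higher, 2.07-fold in the mean (95.4 ± 9.45 against 46.1 ± 8.86 CPM; log2 fold change 1.05 ± 0.19; adjusted p = 0.0320). Only 2.24% of its exonic windows occurred in another annotated gene. Without 1 library it passed only without young 4 (adjusted p = 0.0132; otherwise 0.0588 to 0.119).

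The single protein-coding Gm gene that passed, of 28 (3.57%, against 5.76% of all genes tested), was Gm8909 (chromosome 17, 36164444 to 36168537, minus strand). RefSeq lists H2-gs17 and H2-Tw5l as its synonyms, and it lies among the T-region genes of the major histocompatibility complex, which encode class I-like molecules. It had 7.14, 5.31 and 7.57 CPM in aged 1, 2 and 3, against 0.159, 0.399 and 0.438 CPM in young 4, 5 and 6. These were 149, 103 and 163 counts in aged 1, 2 and 3, against 2, 8 and 10 counts in young 4, 5 and 6, so its young level sat close to the limit of 3 counts. It met the level rule through the aged libraries only. It was 18.8-fold higher in aged HSCs (6.68 ± 1.197 against 0.332 ± 0.151 CPM; log2 fold change 4.23 ± 0.39; adjusted p = 0.00451). The call held in all 6 fits without 1 library, with log2 fold changes of 3.95 to 4.46 and adjusted p up to 0.0303.

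The nearest named gene to Gm8909, 17034 bp upstream on the same strand, was H2-T3, a class I-like gene known from intestinal epithelium and lymphocytes. It had 24.5, 42.4 and 16.9 CPM in aged 1, 2 and 3, against 0.0795, 2.64 and 1.40 CPM in young 4, 5 and 6 (19.3-fold higher in aged HSCs; adjusted p = 0.0342). H2-T3 varied more within each group than Gm8909 did, and it passed in 1 of the 6 fits without 1 library (adjusted p 0.0188 to 0.0947). Of the Gm8909 windows, 25.9% also occurred in another annotated gene, most often the overlapping Gm20478, so part of its count may belong to sequence it shares.

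**Figure D2:**
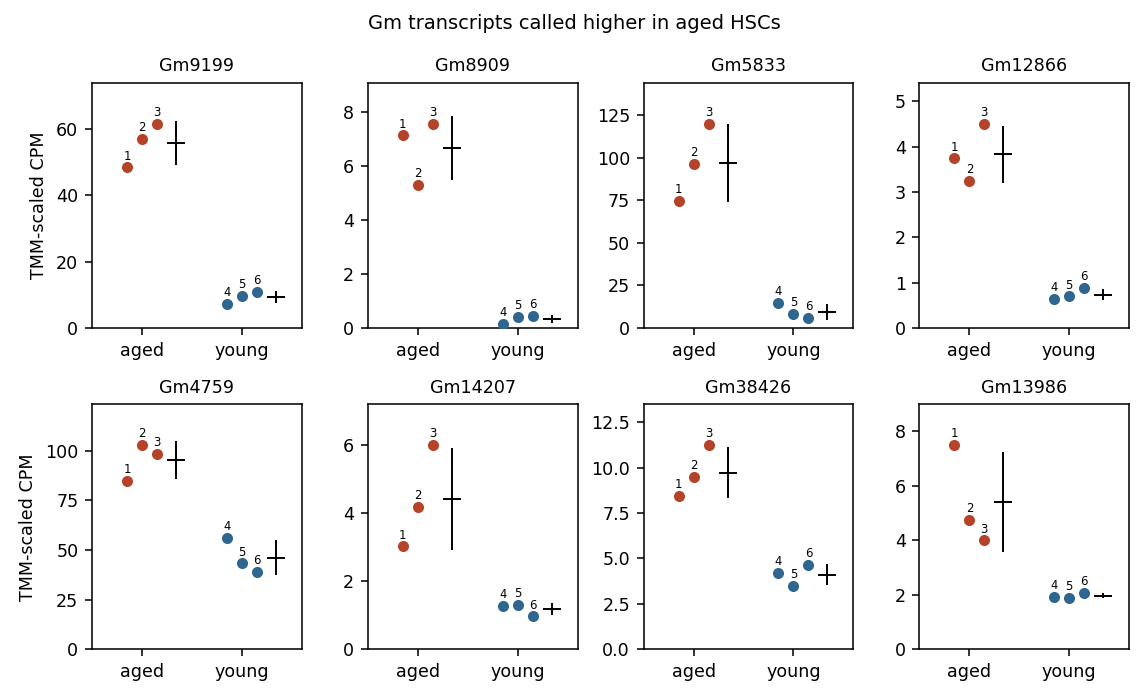
TMM-scaled CPM of the 8 Gm transcripts with an adjusted p under 0.05, in aged (left) and young (right) libraries, each point 1 library with its number, and mean and SD beside the points. In every panel the 3 aged libraries lie above the 3 young ones, with the largest fold for Gm8909 and the smallest for Gm4759.

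A further 4 Gm transcripts had groups that did not overlap and the next smallest p, without passing. Gm16712 (chromosome 17, 55954771 to 55959401, minus strand) was the 1 Gm transcript at 3 CPM in the young libraries only. It had 2.54, 1.91 and 1.53 CPM in aged 1, 2 and 3, against 4.13, 4.78 and 5.52 CPM in young 4, 5 and 6 (2.42-fold lower in aged HSCs; log2 fold change -1.27 ± 0.30; adjusted p = 0.0532). It passed with limma-voom (adjusted p = 0.0464), DESeq2 (0.00115), a correction for GC content and length (0.0492) and without young 4 (0.0441). It did not pass with any other scaling (adjusted p 0.05002 to 0.109) or without a filter on low counts (0.0539). Every other fit without 1 library also failed (0.0688 to 0.193), as did that without young 4 and aged 2 (0.0859). Gm16712 lies antisense to Ebi3, a cytokine subunit gene, over 2252 bases, and 26.4% of its exonic bases are shared with Ebi3 and the neighbouring Ccdc94. Ebi3 had 12.4, 12.1 and 11.7 CPM in aged 1, 2 and 3, against 47.9, 42.4 and 42.0 CPM in young 4, 5 and 6 (3.64-fold lower in aged HSCs; adjusted p = 0.00381).

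Gm13546 (chromosome 2, 58163974 to 58177063, plus strand) lies wholly inside Cytip, on the opposite strand, without sharing an exonic base with it. Cytip encodes an adaptor that regulates adhesion of blood cells. Gm13546 had 4.99, 6.14 and 9.42 CPM in aged 1, 2 and 3, against 3.10, 1.49 and 1.18 CPM in young 4, 5 and 6 (3.64-fold higher in aged HSCs; log2 fold change 1.86 ± 0.44; adjusted p = 0.0568). Cytip had 110, 119 and 126 CPM in aged 1, 2 and 3, against 75.5, 64.6 and 59.8 CPM in young 4, 5 and 6 (1.77-fold higher in aged HSCs; adjusted p = 0.0361). In both genes aged 3 was the highest library and young 6 the lowest. Gm13546 passed without young 4 (adjusted p = 0.0274) and without young 4 and aged 2 (0.0493). It also passed with DESeq2 (0.00130), limma-voom (0.0443), upper-quartile scaling (0.0445), library totals (0.0362), no filter on low counts (0.0308) and the GC and length correction (0.00995). It did not pass with median-ratio size factors (0.0578), a filter of 5 CPM (0.0592) or in any other fit without 1 library (0.0808 to 0.198). Of the 6 fits without 1 library, Cytip passed only in that without young 4 (adjusted p 0.0185 to 0.143).

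The other 2 of these were intergenic lncRNAs. Gm6634 (chromosome 3, 70772379 to 70807291, minus strand) had 3.02, 5.16 and 4.83 CPM in aged 1, 2 and 3, against 1.51, 1.94 and 0.921 CPM in young 4, 5 and 6 (log2 fold change 1.57 ± 0.38; adjusted p = 0.0600). Gm15408 (chromosome 5, 149006962 to 149012776, plus strand) had 2.88, 3.25 and 3.48 CPM in aged 1, 2 and 3, against 1.67, 1.10 and 1.53 CPM in young 4, 5 and 6 (log2 fold change 1.16 ± 0.29; adjusted p = 0.0662). Both were below 3 CPM in every young library. DESeq2 called both (adjusted p = 0.00357 for Gm6634 and 0.00903 for Gm15408), as did the GC and length correction (0.0310 and 0.0391), and Gm6634 also passed without a filter (0.0453) and Gm15408 with library totals (0.0470). Neither passed with limma-voom (0.0603 and 0.0619) or in any fit without 1 library (0.0731 to 0.201 and 0.0623 to 0.232).

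Position relative to named genes was taken from the table's coordinates. At 1 shared base or more, 40 of the 102 Gm transcripts overlapped a named gene, 30 of them on the opposite strand, 13 on the same strand and 3 of these on both. Of the other 62, 25 had a named gene within 5 kb and 37 did not. These overlaps made 51 pairs, of which both genes were tested in 45. Rows ending in Rik were left out, but the 45 pairs include Gm12185 with the RIKEN-named rows 9930111J21Rik1 and 9930111J21Rik2. In 1 pair both passed (Gm14207 with Dll4), in 1 the Gm transcript alone (Gm38426 with Mast1), in 4 the named gene alone, and in 39 neither. The 4 named genes were Ebi3, Cytip, Zbtb20, a transcription factor gene overlapped by Gm19522, and Ntn4, a netrin gene overlapped by Gm15915. Log2 fold changes had the same sign in 33 of the 45 pairs, with Pearson's r of 0.47 and Spearman's rho of 0.58; these describe pairs that share libraries, bases and in places a Gm transcript. Gm15915 was among the pairs of opposite sign, with a log2 fold change of -0.21 (adjusted p = 0.784). Ntn4 averaged 0.920 CPM in aged and 0.0743 CPM in young HSCs (log2 fold change 3.55, adjusted p = 0.0222). Its values of 0.0795, 0.0996 and 0.0438 CPM in young 4, 5 and 6 lay under the limit of 3 counts, so the size of its fold is uncertain.

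**Figure D3:**
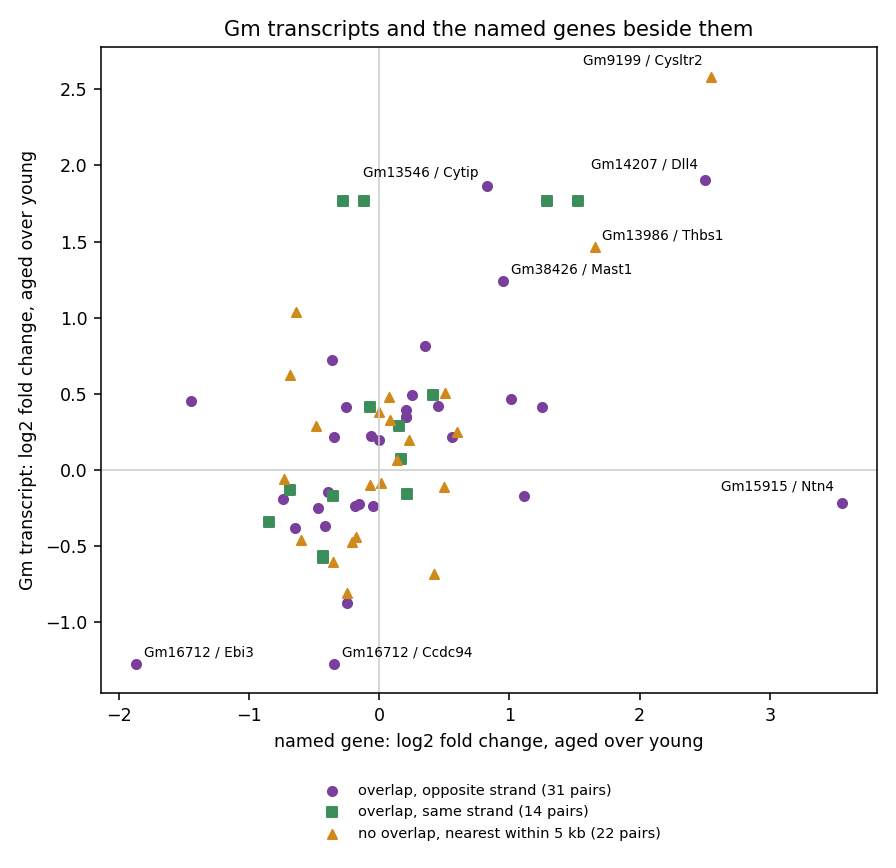
Log2 fold change, aged over young, of Gm transcripts (vertical) against that of the named gene they overlap or, failing that, the nearest named gene within 5 kb (horizontal), 1 point per pair. Gm9199 with Cysltr2 and Gm14207 with Dll4 lie at the upper right, Gm16712 with Ebi3 at the lower left, and Gm15915 stays near 0 beside Ntn4.

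Several of the most abundant Gm genes are interferon-inducible GTPases. RefSeq gives Irgb10 as a synonym of Gm12250, Irgb2b1 of Gm12185, Ifgga2 of Gm4951 and Ifgga3 of Gm4841. In mouse the immunity-related GTPases act with guanylate-binding proteins in cell-autonomous defence, and their promoters respond to interferon through the interferon-stimulated response element (ISRE) and the gamma-activated site (GAS). The promoters of Gm12250 and Gm12185 are shown as those of 2 abundant GTPase genes that hold both motifs, 250 bases before to 50 after the RefSeq start, 5′ to 3′ on the gene's strand. They are RefSeq sequence of build GRCm38.p6, chr11:58183593-58183892 (plus strand) for Gm12250 and chr11:48927133-48927432 (minus strand) for Gm12185. The interval given with the counts of Gm12185 begins further upstream, so the sequence shown does not lie at the beginning of that interval. Capitals mark the ISRE core, searched on both strands as GAAA, any 2 bases and GAAA again, and the GAS motif TTCNNNGAA, where N is any base and which is its own reverse complement. No GAS match overlapped an ISRE core in these promoters.

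Gm12250: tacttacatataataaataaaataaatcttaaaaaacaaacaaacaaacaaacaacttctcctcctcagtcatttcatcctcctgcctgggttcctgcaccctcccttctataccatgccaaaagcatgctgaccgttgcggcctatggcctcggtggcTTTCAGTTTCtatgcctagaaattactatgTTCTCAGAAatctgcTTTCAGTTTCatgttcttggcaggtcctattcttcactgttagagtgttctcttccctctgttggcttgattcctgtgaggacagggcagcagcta
Gm12185: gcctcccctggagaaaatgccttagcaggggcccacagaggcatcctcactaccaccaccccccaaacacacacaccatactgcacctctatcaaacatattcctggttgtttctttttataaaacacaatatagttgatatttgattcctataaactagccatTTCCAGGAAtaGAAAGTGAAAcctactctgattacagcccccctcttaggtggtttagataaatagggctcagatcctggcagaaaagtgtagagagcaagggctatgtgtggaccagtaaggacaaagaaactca

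In Gm12250 the ISRE core occurs in 2 places, beginning at -91 and -46 from the start and both read on the other strand, with a GAS motif at -61 between them. In Gm12185 a single core begins at -75, next to a GAS motif at -86. Of all 32851 promoters in the table, 3.44% held the ISRE core and 8.30% the GAS motif. Promoters were listed for 68 of the 102 Gm genes, 71 in number, of which 5 (7.04%) held the ISRE core and 8 (11.3%) the GAS motif. The other Gm promoters with the ISRE core were those of Gm12216 and Gm16675, which also hold the GAS motif, and Gm1966, which does not. Gm4951, Gm4841 and Gm4759 were not among the Gm genes with either motif, for lack of a match or of a listed promoter. The 2 promoters shown therefore do not stand for all GTPase genes named here. A match describes the letters only.

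None of these GTPases passed edgeR's test between ages, and neither did Gm1966, which the GENCODE annotation lists as a pseudogene. Their libraries varied widely within each group. By other settings some did: DESeq2 called Gm12185 (adjusted p = 0.00738), Gm4841 (0.00606) and Gm1966 (0.00907), and edgeR without a filter on low counts gave them 0.0459, 0.0499 and 0.0469. With GC content and length corrected, Gm1966 had an adjusted p of 0.0492. With limma-voom, other scalings or 1 library left out, Gm12185, Gm4841 and Gm1966 did not pass. Gm12250 (chromosome 11, 58183843 to 58190198, plus strand) had 185, 140 and 68.4 CPM in aged 1, 2 and 3, against 67.1, 145 and 41.9 CPM in young 4, 5 and 6. Aged and young libraries overlapped, and the means of 131 ± 58.6 CPM in aged and 84.8 ± 53.9 CPM in young HSCs differed by less than the spread (log2 fold change 0.63 ± 0.52; adjusted p = 0.458). Gm12185 (chromosome 11, 48904656 to 48992246, minus strand) had 165, 150 and 56.4 CPM in aged 1, 2 and 3, against 31.0, 57.3 and 20.6 CPM in young 4, 5 and 6 (log2 fold change 1.77 ± 0.50; adjusted p = 0.0872). Only aged 3 and young 5, nearly equal, overlapped there. Its interval spans Tgtp1, another interferon-inducible GTPase gene, along with Psme2b and a pair of RIKEN-named rows, and 19.1% of its windows occurred in other genes.

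Gm4951, on chromosome 18, had 236, 312 and 127 CPM in aged 1, 2 and 3, against 198, 133 and 51.9 CPM in young 4, 5 and 6 (log2 fold change 0.82 ± 0.51; adjusted p = 0.340). Its groups overlapped. Gm4841, also on chromosome 18, had 17.8, 17.8 and 10.6 CPM in aged 1, 2 and 3, against 4.29, 8.37 and 3.11 CPM in young 4, 5 and 6 (log2 fold change 1.55 ± 0.41; adjusted p = 0.0758). Gm1966 (chromosome 7, 106595549 to 106644645, minus strand), near Gm4759, had 84.8, 65.3 and 33.4 CPM in aged 1, 2 and 3, against 28.9, 25.8 and 17.3 CPM in young 4, 5 and 6 (log2 fold change 1.35 ± 0.36; adjusted p = 0.0765). For Gm4841 and Gm1966 every aged library exceeded every young one, aged 3 least.

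Named relatives, chosen after their values were seen, were likewise lowest in aged 3 among the aged libraries. Igtp had 550, 525 and 243 CPM in aged 1, 2 and 3, against 144, 286 and 119 CPM in young 4, 5 and 6 (adjusted p = 0.133). Irgm2 had 284, 239 and 163 CPM in aged 1, 2 and 3, against 43.2, 118 and 60.1 CPM in young 4, 5 and 6 (adjusted p = 0.0607). Gvin1, the parent named for Gm4759, had 40.0, 33.9 and 18.2 CPM in aged 1, 2 and 3, against 14.0, 17.5 and 9.34 CPM in young 4, 5 and 6 (adjusted p = 0.101). Gm4759 differed from these in that aged 3 was not its lowest aged library. Among the young libraries Igtp, Irgm2 and Gvin1 were highest in young 5. Gm4759 was highest in young 4, as were Gm4951, Gm1966 and the named relatives Tgtp1, Tgtp2 and Ifi47.

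**Figure D4:**
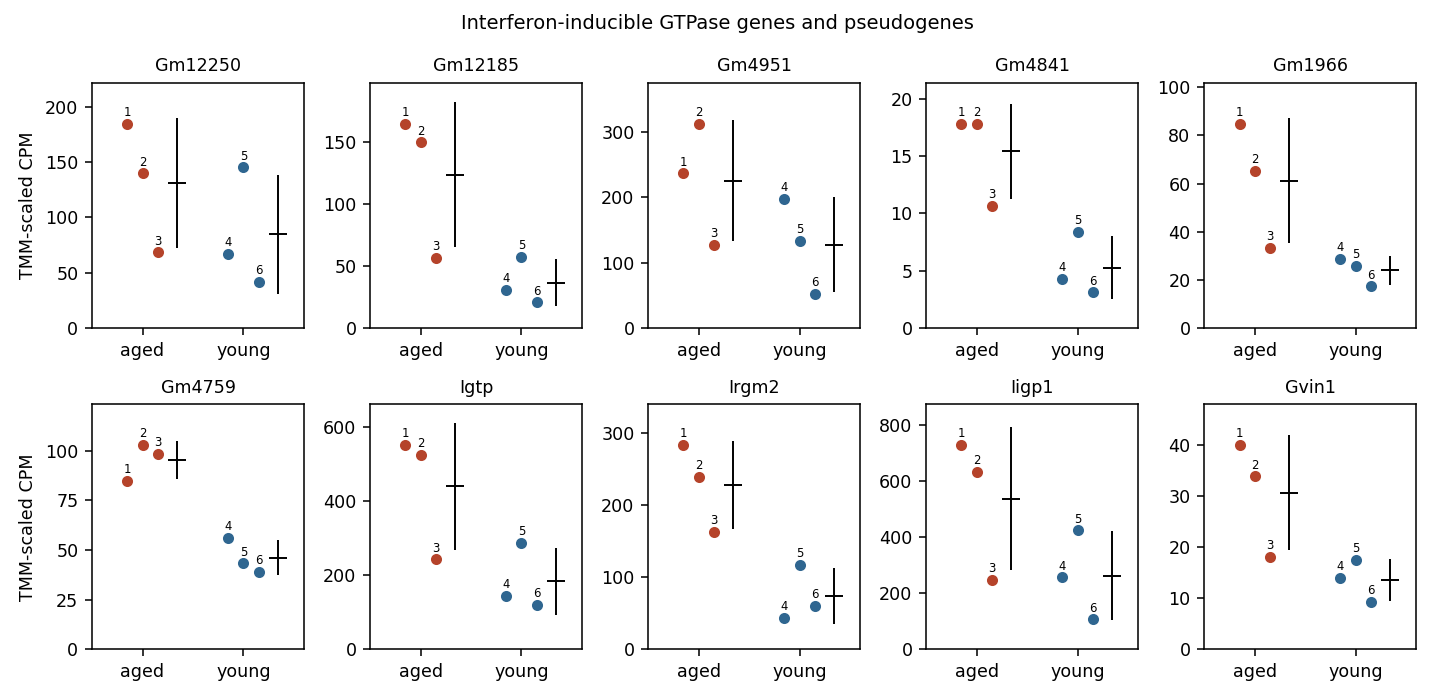
TMM-scaled CPM of Gm genes annotated as or named for interferon-inducible GTPases, with Gm1966 and 4 named relatives, in aged (left) and young (right) libraries, each point 1 library with its number, and mean and SD beside the points. Aged 3 is the lowest aged library in every panel but that of Gm4759, and Gm4759 is the only 1 of the 10 with an adjusted p under 0.05.

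Per kilobase of transcript, Gm1821 had the highest mean level over all libraries, 118 CPM per kb, followed by Gm6654 (111), Gm4951 (66.6), Gm5148 (63.2), Gm12250 (39.9) and Gm5617 (32.4). The leading pair are hard to tell from other genes. Gm1821 is annotated as a ubiquitin pseudogene, and 84.6% of its windows occurred elsewhere, 79.3% in the ubiquitin gene Ubb. It had 34.04, 69.3 and 49.6 CPM in aged 1, 2 and 3, against 243, 52.1 and 48.0 CPM in young 4, 5 and 6. Only young 4 stood apart, so that the log2 fold change of -1.16 ± 0.65 (adjusted p = 0.299) was 0.01 without it. Ubb had 2115, 4057 and 3234 CPM in aged 1, 2 and 3, against 7321, 2920 and 3422 CPM in young 4, 5 and 6, and was likewise highest in young 4. Gm6654 lies wholly within exonic sequence of Med21, a Mediator subunit gene, and all of its windows occurred there.

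Gm5148 (chromosome 3, 37714190 to 37724360, minus strand), a protein-coding prediction, had 94.3, 77.2 and 97.7 CPM in aged 1, 2 and 3, against 89.7, 87.1 and 54.0 CPM in young 4, 5 and 6. Its groups overlapped, and the difference was within their spread (log2 fold change 0.22 ± 0.23; adjusted p = 0.553).

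Other copies were also highest in young 4. Gm12338, all of whose windows occurred in Cox7c, a cytochrome c oxidase subunit gene, had 8.01, 8.10 and 7.29 CPM in aged 1, 2 and 3, against 23.8, 9.67 and 9.64 CPM in young 4, 5 and 6. Cox7c had 137, 181 and 133 CPM in aged 1, 2 and 3, against 569, 190 and 179 CPM in young 4, 5 and 6. Gm5643, an Hnrnpa1 pseudogene with 64.5% of windows elsewhere, had 2.78, 2.99 and 2.5998 CPM in aged 1, 2 and 3, against 11.1, 3.84 and 4.47 CPM in young 4, 5 and 6 (log2 fold change -1.19; adjusted p = 0.153). None of these passed, and neither did Cox7c (adjusted p = 0.209).

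Over the 89 Gm transcripts found in the GENCODE annotation, the median share of windows that occurred in another gene was 6.21%. Of these, 20 had no such window, 43 had fewer than 5%, 14 had 50% or more and 2 had all. At least 50% of the exonic bases were shared with another gene in 4: Gm20605, Gm21992, Gm5124 and Gm6654. RefSeq's synonyms for a pair of these join neighbouring gene names, Lrch4-sap25 for Gm20605 and Rbm14-rbm4 for Gm21992. Gm20605 had 38.1, 13.2 and 16.3 CPM in aged 1, 2 and 3, against 16.3, 16.4 and 16.5 CPM in young 4, 5 and 6, and the row of Lrch4 had no count in any library. Gm21992 had 12.7, 9.91 and 9.10 CPM in aged 1, 2 and 3, against 6.996, 8.52 and 8.15 CPM in young 4, 5 and 6, and the row of Rbm4 had no count in any library. Rbm14, the other gene in the synonym of Gm21992, had counts of its own. Its row gave 47.0, 14.9 and 17.1 CPM in aged 1, 2 and 3. In young 4, 5 and 6 it gave 17.6, 32.9 and 32.5 CPM. Gm5124 shared exonic bases with Gm26593, itself without a descriptive name. For Gm20605 with Lrch4, Gm21992 with Rbm4 and Gm6654 with Med21, the level of the Gm row and that of the named gene cannot be told apart.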

How the data were processed

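Sorted HSC RNA was sequenced after SMART-Seq v4 amplification as single reads of 51 cycles, per the labels' protocols. The submitters' processing notes name Trimmomatic, STAR 2.6.0, HTSeq 0.11.1, edgeR and build mm10. Neither the annotation nor the way reads were assigned to genes is stated there. The authors deposited whole-number counts per gene, unscaled, with coordinates.

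Counts of all 6 libraries were fitted with age as the only term (edgeR 4.0.16 in R 4.3.3: default filterByExpr, TMM scaling, quasi-likelihood F-test), with Benjamini-Hochberg adjustment over 13413 genes. CPM values are TMM-scaled unless called unscaled; fitted folds can differ slightly from ratios of means. Alternatives used DESeq2 1.42.0 and limma 3.58.1, other scalings and filters, and fits without 1 library. The procedure was tested on simulated counts. Overlaps came from the table's intervals, leaving out 39 rows over 2.5 Mb wide, or small-RNA rows over 10 kb. Windows of 51 bases and exonic sharing came from GENCODE M21. Genes described were those that passed, the 6 with the highest mean level, the next 4 with separate groups, the rule's edges, and neighbours; the GTPases, copies and joined rows were added after values were seen. The members and lists were chosen with earlier results of these data known. Replicate numbers differ between groups and pair nothing.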

Additional observations from a re-analysis of the deposited data

How the results depend on the processing

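The 8 Gm transcripts higher in aged HSCs, with 0 lower, became 13 higher without a filter on low counts. There 4.45% of all genes tested passed. A filter of 5 CPM in 3 libraries left 5 (72 Gm transcripts tested), with 4.16% of all genes passing. DESeq2 gave 16 higher with 1 lower (17 in all, where DESeq2 called 16.3% of all genes tested). Limma-voom gave 1 lower beside 8 higher (6.09% of all genes tested passed). Removing the dependence of each library on gene GC content and gene length was an alternative chosen after seeing the data. It gave 11 higher and 1 lower among 90 tested. Over all genes, 10.4% passed with it, against 5.76% in the main fit. The share of higher calls over all genes moved to 50.3%, from 74.0%. Scaling by totals alone raised the median of all genes by 0.16 on the log2 scale. Without 1 library, the calls in either direction ran from 2 (without young 5) to 11 (without young 4), those higher from 2 to 10 and those lower from 0 to 1, while all-gene calls ran from 74 to 1029. Without young 4 and aged 2 there were 6 higher and 0 lower, with 4.81% of all genes tested passing. A level rule of 10 CPM left 41 members with 3 higher, and 3 CPM in all 6 libraries left 73 with 4 higher (5.48%). In the main fit 5.76% of all genes tested passed. Requiring 50% overlap left 21 overlapping members in place of 40. The causes were not tested. Gm8909 was called in every fit run, and Gm9199 in every fit that tested it. Among named genes, 28 alternative values lost the call and 20 gained it. A further 4, none called, changed sign near 0: Gm1821 (0.01) and Gm12522 (0.02) without young 4, and Gm21284 without aged 2 (-0.03) and without young 6 (-0.04). No paired analysis was possible because the groups share no replicate number. At these depths, levels under 0.132 to 0.239 CPM cannot be told from 0.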
